A study of Mus musculus with 11 samples.

Results

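The nuclear genes for the subunits of the mitochondrial respiratory chain and ATP synthase were examined in the islet libraries, sorted by the complex to which each protein belongs. Members were taken by gene symbol, using the families Ndufa, Ndufb, Ndufc, Ndufs and Ndufv for complex I, Sdh for complex II, Uqcr for complex III, Cox4 to Cox8 for complex IV and Atp5 for complex V. The rule found 85 of the 55536 genes in each table, of which 36 fell to complex I, 4 to complex II, 8 to complex III, 19 to complex IV and 18 to complex V. No measured value entered the rule.

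The study asked how islets of mice that had carried several pregnancies respond to a rise in insulin demand. RNA of pancreatic islets was sequenced from wild-type female C57BL/6J mice that entered the study at 9 weeks of age and either stayed virgin or completed 3 pregnancies (multipara), with islets studied 3 weeks after the last delivery. Mice were injected with S-961, a peptide antagonist of the insulin receptor that makes animals insulin resistant, or received no treatment. The injected mice gave 3 libraries labelled virgin and 4 labelled multipara, the mice without treatment gave 2 of each, and polyA RNA was used throughout. The labels give replicate numbers but do not tie libraries to animals or pools of animals, so that p-values measure only the spread between these samples.

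The respiratory chain passes electrons from NADH at complex I and from succinate at complex II through ubiquinone, complex III and cytochrome c to oxygen at complex IV, and ATP synthase, called complex V, uses the resulting proton gradient to make ATP. Complexes I, III, IV and V combine subunits read from nuclear genes with a few read from mitochondrial DNA, whereas complex II is wholly nuclear. In β cells the ATP made in this way closes potassium channels and couples glucose to insulin release. Core subunits hold the flavin, iron-sulfur, heme or catalytic sites, and the many small accessory subunits are needed for assembly and stability.

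Some symbols that the rule took in are not plain subunits. Ndufa4 carries a complex I name but is now placed in complex IV, Cox7a2l promotes the joining of complexes into supercomplexes, Atp5s is a coupling factor rather than a subunit, and Cox6c2 is annotated as a processed pseudogene. The symbol Atp5o was used by 2 genes, of which ENSMUSG00000116933 held 0 counts in every library. Of the 85 members, 80 passed the filter on low counts over all 11 libraries, 78 over the S-961 libraries and 79 over the untreated libraries. The 5 that passed in no fit were Cox6c2 with 5 counts over all libraries, the testis isoform Cox7b2 with 5, the muscle isoform Cox8b with 4, and Cox8c and the second Atp5o with 0.

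Total counts ran from 22028507 to 32234146 per library. Islet hormone transcripts dominated the libraries, and Ins1 and Ins2 together accounted for 13.2 to 20.7% of an S-961 library and for 35.3 to 41.4% of an untreated one. The members together accounted for 0.528 to 0.736% and 0.811 to 0.851%. As a check of the islet label, 10 β cell markers summed to 123700 to 234700 CPM with S-961 and to 457100 to 615000 CPM without, where CPM are read counts scaled to a common library size. Acinar markers, which report carry-over of exocrine tissue, were present in all libraries, and their 13 genes summed to 2067 to 14630 CPM with S-961 and to 117.8 to 235.3 CPM without. Immune markers stood apart in the library labelled multipara untreated 1, at 2053 CPM against 175.2 to 467.4 CPM elsewhere. By a chi-square distance over genes, the library labelled multipara S-961 4 was closer to the virgin S-961 libraries (9.10 to 41.4 per gene) than to the other libraries labelled multipara with S-961 (54.3 to 90.6), and its Mki67, a proliferation marker, was at 3.93 CPM against 43.5 to 93.9 CPM in those and 3.04 to 13.8 CPM in the virgin S-961 libraries. Libraries of the multipara S-961 label thus differed in this marker, 3 being above all virgin S-961 libraries and 1 within their range, and every comparison of parity labels keeps the labels as given. Mki67 was also at 38.6 CPM in multipara untreated 1, against 2.14 to 6.54 CPM in the other untreated libraries. The labels name no date or batch, so that the S-961 injection and any unlabelled difference in the preparation of the islets cannot be told apart.

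Subunit transcripts of complexes I, III, IV and V were lower in islets of S-961 injected mice than in untreated islets, and those of complex II were lower with each scaling except that by total counts. Over the mean of both parity labels, 68 of the 80 tested members were lower and 1 was higher by edgeR's quasi-likelihood test at an adjusted p under 0.05, where 52.1% of the 17996 tested genes were called, 25.9% lower and 26.1% higher. The median log2 fold change of the members was -1.17, against -0.01 over all tested genes. Lower members were 34 of 36 in complex I, 3 of 4 in complex II, 7 of 8 in complex III, 12 of 15 in complex IV and 12 of 17 in complex V. In bulk islet RNA, fewer cells of a type and less RNA per cell cannot be told apart.

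Each parity label was also fitted on its own. Among libraries labelled virgin, 59 members were lower and 1 was higher with S-961, where 36.5% of genes were called, 17.6% lower and 18.8% higher. Among libraries labelled multipara, 65 members were lower and 1 was higher, where 37.6% of genes were called, 19.4% lower and 18.2% higher. The medians of the members were -1.03 and -1.22 on the log2 scale. These comparisons use different libraries but share 1 estimate of the spread.

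The mean log2 CPM of the tested members, a description with no test, was 5.48 ± 0.21 (SD, n = 3) in virgin and 5.40 ± 0.34 (n = 4) in multipara islets with S-961, and 6.49 ± 0.02 (n = 2) and 6.58 ± 0.11 (n = 2) in untreated virgin and multipara islets. Complex IV had the largest difference between S-961 and untreated islets, at -1.15 for virgin and -1.30 for multipara, followed by complex I at -1.06 and -1.27. The complex IV mean weighs Cox4i2, Cox6b2 and Cox7a1, at no more than 3.34 CPM in any library, equally with its other members. Its place ahead of complex I thus leans on genes near the floor. Complexes V and III followed with -0.93 and -1.07, and with -0.91 and -1.08. Complex II had the smallest difference, at -0.43 and -0.53, and with total counts as the only scaling its mean of both was 0.04. Between replicates, the mean over all members varied with a pooled SD of 0.208. The complexes of a library largely moved together in this spread, so it does not measure how firm the ranking of the complexes is. That ranking was not tested. Complex levels sat lowest in multipara S-961 3 and highest in multipara S-961 2 and virgin S-961 3 among the S-961 libraries, and in no complex did an S-961 library reach the untreated libraries.

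**Figure D1:**
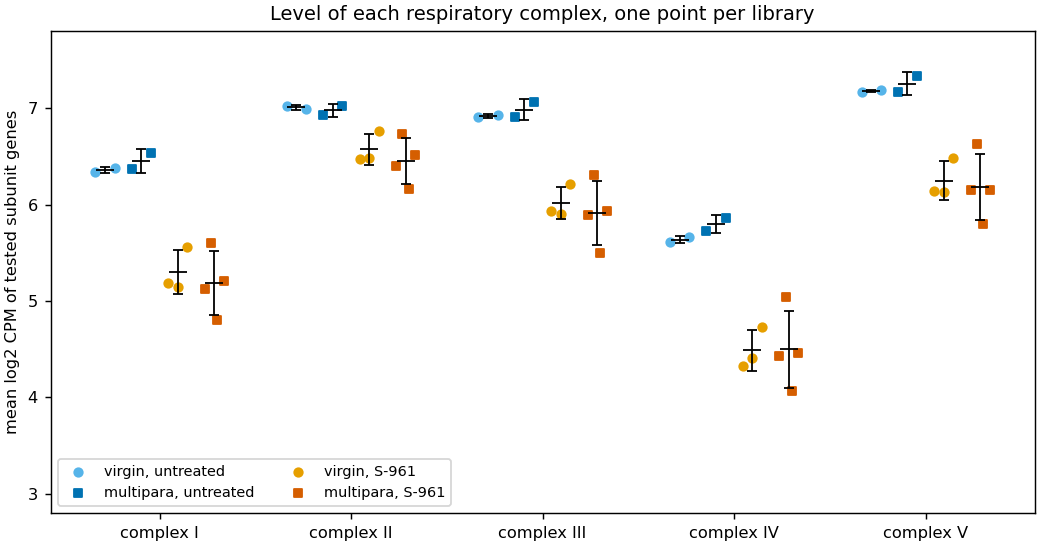
Mean log2 CPM of the tested subunit genes of each respiratory complex (vertical axis), with a point per library, colour and shape for the 4 groups, and bars for the group mean and SD. In every complex the 7 S-961 libraries lie below the 4 untreated libraries, and the gap is smallest for complex II.

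Library by library, all 7 S-961 libraries were below all 4 untreated libraries for 66 of the 80 tested members, where 19.1% of all tested genes showed this, and no member had all S-961 libraries above, where 17.4% of genes did. The 66 were 33 members of complex I, 3 of complex II, 7 of complex III, 11 of complex IV and 12 of complex V.

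**Figure D2:**
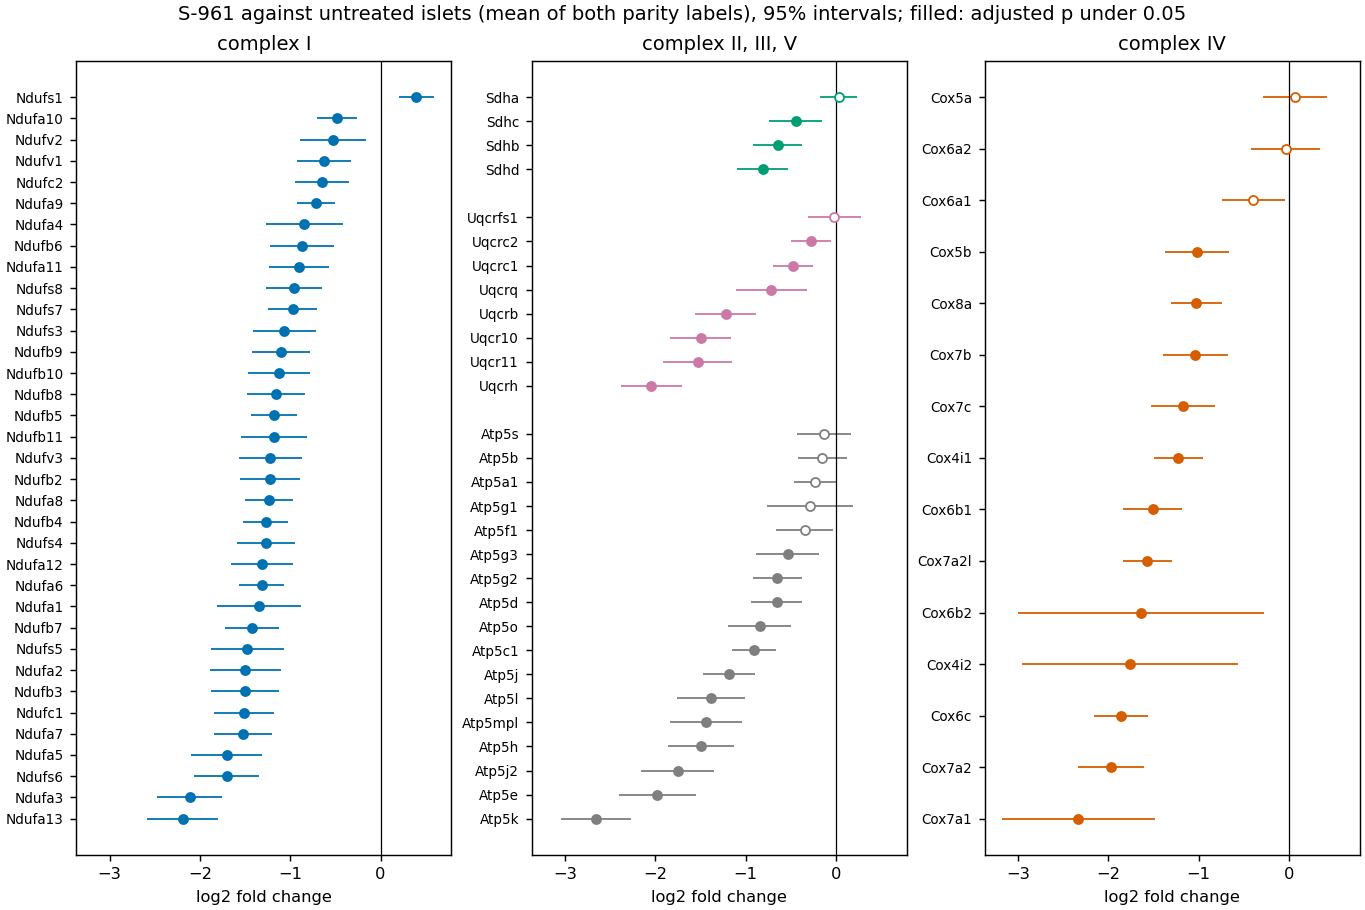
Log2 fold change of the tested subunit genes, 1 left out, between S-961 and untreated islets (horizontal axis, mean of both parity labels) with its 95% interval, in panels for complex I, for complexes II, III and V, and for complex IV; filled points have an adjusted p under 0.05. Values run from -2.66 for Atp5k to 0.40 for Ndufs1, which alone lies to the right of 0 with a filled point.

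The largest differences belonged to small proteins. Atp5k (ENSMUSG00000050856, chr5:108433244-108434448 in GRCm38), the e subunit that helps pair ATP synthase into dimers, was at 16.3, 17.4 and 23.3 CPM in virgin and at 17.1, 27.6, 13.8 and 16.2 CPM in multipara islets with S-961, and at 104, 113, 124 and 137 CPM in untreated islets. The groups were far apart, with the highest S-961 library well under the lowest untreated library. Its level was 6.33-fold lower with S-961 (log2 fold change -2.66, SE 0.18, adjusted p 3.61e-06 by edgeR).

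Ndufa13 (ENSMUSG00000036199, chr8:69894180-69902558), an accessory subunit of complex I also known as GRIM-19, was at 32.9, 27.5 and 38.4 CPM in virgin and at 30.7, 47.8, 22.1 and 28.9 CPM in multipara islets with S-961, and at 144, 149, 149 and 155 CPM in untreated islets. It was 4.57-fold lower with S-961 (log2 fold change -2.19, SE 0.18, adjusted p 7.97e-06). Uqcrh (ENSMUSG00000063882, chr4:116066965-116075071), the hinge protein that bridges cytochrome c1 and cytochrome c in complex III, was at 52.4, 54.8 and 72.4 CPM in virgin and at 52.9, 79.2, 43.9 and 54.5 CPM in multipara islets with S-961, and at 226, 236, 238 and 270.4 CPM without. Its log2 fold change was -2.04 (SE 0.15, adjusted p 5.63e-06). Neither gene had any overlap between treated and untreated libraries.

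At the other end, Sdha (ENSMUSG00000021577, chr13:74322254-74350280), the flavoprotein that oxidises succinate in complex II, was at 208, 215 and 242 CPM in virgin and at 178, 198, 174 and 210.3 CPM in multipara islets with S-961, and at 215, 212, 183 and 197 CPM in untreated islets. The ranges overlapped in full, and the log2 fold change was 0.03 with a 95% interval from -0.17 to 0.23 (adjusted p 0.816). With total counts as the only scaling Sdha was called higher (adjusted p 0.000122). Cox5a (ENSMUSG00000000088, chr9:57521274-57532426), a subunit of complex IV that faces the matrix, was at 32.6, 30.7 and 48.0 CPM and at 31.5, 43.2, 25.0 and 32.5 CPM with S-961, and at 30.6, 29.8, 37.5 and 36.3 CPM without. Its log2 fold change was 0.07 (SE 0.16, adjusted p 0.734).

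**Figure D3:**
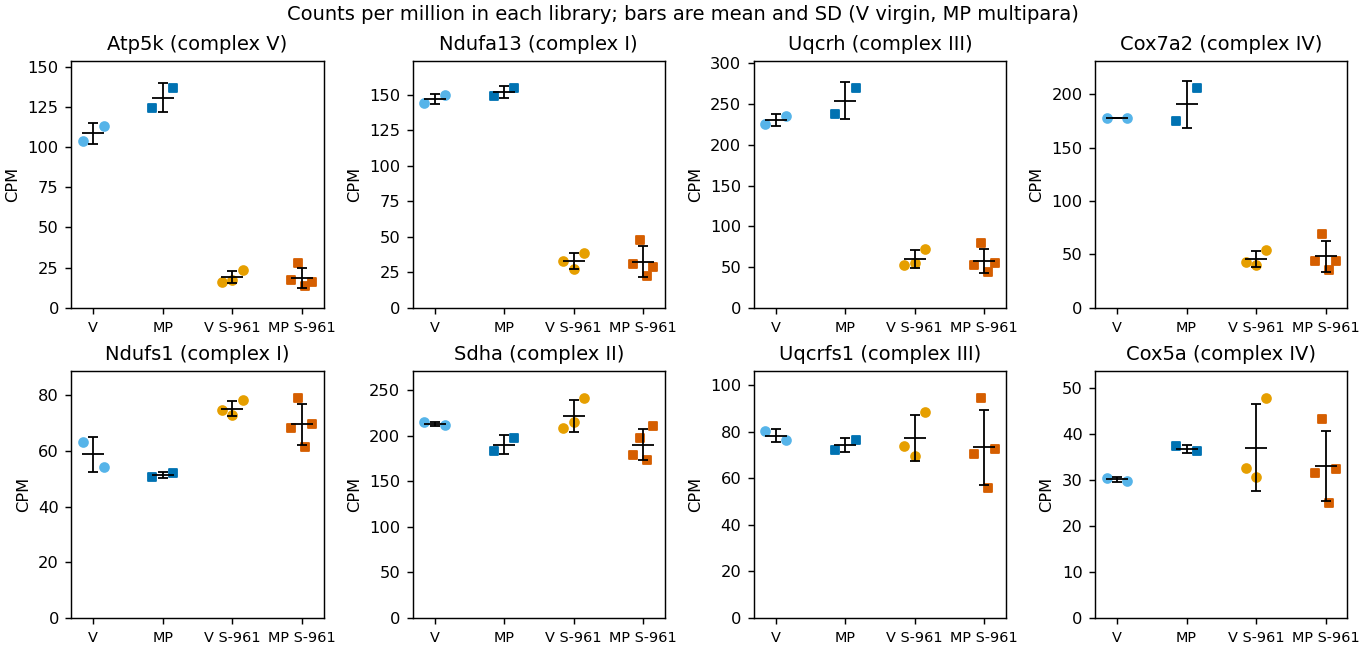
CPM in each library (vertical axes from 0) for 8 subunit genes, with points for libraries and bars for group mean and SD; the upper row shows genes that were lower with S-961 and the lower row genes that were not. For Atp5k, Ndufa13, Uqcrh and Cox7a2 the S-961 points lie well below the untreated points, for Ndufs1 most lie above them, and for Sdha, Uqcrfs1 and Cox5a they overlap.

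Promoters of these 5 genes are shown because the genes span the range from the largest fall to no detectable difference. Each runs from 250 bases before to 50 bases after the RefSeq start site in GRCm38.p6, so that its last bases lie in the first exon, and is written along the strand of the gene. Capitals mark matches on either strand to the motifs of transcription factors known for respiratory genes, spelled GCGCA, any base and GCGC for NRF1, CCGGAAG for ETS factors such as GABPA, AAGATGGC for YY1 and TCAAGGTCA for estrogen-related receptors. Atp5k held 1 NRF1 and 1 ETS match, Uqcrh 1 ETS match, Sdha 3 NRF1 matches, and Ndufa13 and Cox5a held none of these letters in the window. The Ndufa13 window lies wholly inside the gene as annotated in GENCODE M21, which starts upstream at 69902558. Letters around that start were not searched.
Atp5k, chr5:108434350-108434649, minus strand: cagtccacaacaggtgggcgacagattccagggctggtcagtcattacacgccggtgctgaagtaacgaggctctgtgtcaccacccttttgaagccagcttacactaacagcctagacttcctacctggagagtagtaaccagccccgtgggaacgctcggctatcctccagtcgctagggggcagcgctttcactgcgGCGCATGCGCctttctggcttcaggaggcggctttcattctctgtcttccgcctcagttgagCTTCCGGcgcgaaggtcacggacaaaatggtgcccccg
Ndufa13, chr8:69901971-69902270, minus strand: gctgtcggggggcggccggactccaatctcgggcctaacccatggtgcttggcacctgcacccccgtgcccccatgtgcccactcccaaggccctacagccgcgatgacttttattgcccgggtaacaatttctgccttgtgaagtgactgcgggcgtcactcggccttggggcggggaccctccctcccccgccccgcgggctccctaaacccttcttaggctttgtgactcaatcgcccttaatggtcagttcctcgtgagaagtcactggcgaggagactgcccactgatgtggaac
Uqcrh, chr4:116075021-116075320, minus strand: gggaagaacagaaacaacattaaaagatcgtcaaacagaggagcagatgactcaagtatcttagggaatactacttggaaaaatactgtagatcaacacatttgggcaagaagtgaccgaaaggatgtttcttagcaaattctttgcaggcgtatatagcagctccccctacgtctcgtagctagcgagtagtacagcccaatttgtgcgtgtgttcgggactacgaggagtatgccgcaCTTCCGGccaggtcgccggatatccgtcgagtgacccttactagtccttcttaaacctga
Sdha, chr13:74350191-74350490, minus strand: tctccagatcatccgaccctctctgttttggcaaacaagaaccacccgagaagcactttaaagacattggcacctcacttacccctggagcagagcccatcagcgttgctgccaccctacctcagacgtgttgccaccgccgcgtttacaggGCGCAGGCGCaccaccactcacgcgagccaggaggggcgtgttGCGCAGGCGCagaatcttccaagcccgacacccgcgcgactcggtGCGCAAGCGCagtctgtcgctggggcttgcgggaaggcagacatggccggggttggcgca
Cox5a, chr9:57520982-57521281, plus strand: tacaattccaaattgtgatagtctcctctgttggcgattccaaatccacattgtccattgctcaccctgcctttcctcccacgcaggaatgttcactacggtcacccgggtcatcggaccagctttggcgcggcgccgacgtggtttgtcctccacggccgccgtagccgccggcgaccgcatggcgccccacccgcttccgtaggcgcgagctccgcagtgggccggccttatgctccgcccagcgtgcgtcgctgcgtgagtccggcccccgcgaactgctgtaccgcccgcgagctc

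Promoter sequence was matched for 66 member symbols. A symbol was counted if any of its promoters held the letters, whereas the share beside it is of single promoters, so the units differ. The NRF1 letters were found in 17 of them (25.8%) against 4.60% of all 32851 promoters, the ETS letters in 16 (24.2% against 8.86%), the YY1 letters in 9 (13.6% against 2.75%) and the estrogen-related receptor letters in 2 (3.03% against 0.423%). The members with and without a motif overlapped in their change with S-961. The median log2 fold change was -0.91 over 17 tested members with the NRF1 letters and -1.18 over 47 without, -1.28 over 16 with the ETS letters and -1.18 over 48 without, and -1.27 over 9 with the YY1 letters and -1.18 over 55 without. A match describes the letters and not the binding of a factor.

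In complex I, the accessory subunits fell together and the core subunits fell less. Core transcripts are of 870.5 to 2625.5 nt and most accessory ones are shorter, and short transcripts fell more over all genes, as given below. Role and length were not separated here. All 29 accessory members were called lower with a median log2 fold change of -1.27, from -0.48 for Ndufa10 to -2.19 for Ndufa13. Ndufa3 followed at -2.12 (SE 0.16, adjusted p 6.24e-06) and was at 12.8 to 23.5 CPM with S-961 against 58.1 to 84.2 CPM without. Ndufs6, Ndufa5 and Ndufa7 had values of -1.70, -1.70 and -1.52. Ndufa4, the member now placed in complex IV, was at -0.84 (SE 0.19, adjusted p 0.00399).

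Among the 7 core subunits, 5 were called lower and 1 higher, with a median of -0.63. Ndufs3, Ndufs7 and Ndufs8, which belong to the arm that carries the iron-sulfur clusters, were at -1.07, -0.97 and -0.95. Ndufv1, which binds NADH and the flavin, was at -0.63 (SE 0.13, adjusted p 0.00257) and its partner Ndufv2 at -0.53 (SE 0.16, adjusted p 0.0204).

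Ndufs1 (ENSMUSG00000025968, chr1:63143596-63176833), the largest nuclear subunit of complex I with several iron-sulfur clusters, went the other way. It was at 74.6, 72.8 and 78.4 CPM in virgin and at 68.3, 79.2, 61.3 and 69.7 CPM in multipara islets with S-961, and at 63.2, 54.2, 50.6 and 52.2 CPM without. A single pair of libraries crossed, since virgin untreated 1 was above multipara S-961 3. The log2 fold change was 0.40 (SE 0.09, adjusted p 0.00339 by edgeR). For the mean of both labels the call was lost in 1 of 22 alternatives, after removal of the trend with coding length (0.14, adjusted p 0.222). Within labels it was less firm. In multipara islets (0.44, adjusted p 0.0177) it was lost in 5 of 23 alternatives, namely without either untreated multipara library (adjusted p 0.123 and 0.0787), with the replicate number as a block (0.0587), with the other choice of libraries (0.065) and with the coding length trend removed (0.275). In virgin islets (0.36, adjusted p 0.0495) it was lost in 15 of 23, with an adjusted p of up to 0.602.

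Complex II has 4 subunits. Sdha is described above. Sdhb, the iron-sulfur subunit, was at 42.8, 44.8 and 55 CPM in virgin and at 42.4, 59.7, 38.1 and 45.1 CPM in multipara islets with S-961, against 73.4, 68.9, 75.9 and 75.2 CPM without, a log2 fold change of -0.64 (SE 0.12, adjusted p 0.00129). Sdhd, a membrane anchor, was at 81.8 to 131 CPM with S-961 against 164 to 185 CPM without, at -0.81 (SE 0.13, adjusted p 0.000352). Sdhc, the other anchor, was at 48.7 to 88.8 CPM against 96.6 to 105 CPM, at -0.44 (SE 0.13, adjusted p 0.0163). For these 3 genes the S-961 libraries were all below the untreated libraries. With total counts as the only scaling, Sdhc was at 0.07 (adjusted p 0.584), Sdhb was no longer called (adjusted p 0.296), and the call of Sdhc was also lost without virgin untreated 1 (adjusted p 0.0597) or multipara untreated 2 (adjusted p 0.0563). Removal of the coding length trend brought Sdhc to -0.03 (adjusted p 0.761), and removal of the length and GC trend brought Sdhb to -0.13 (adjusted p 0.135).

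In complex III, the 5 small subunits were all called lower with a median of -1.50, and Uqcr11 (-1.53), Uqcr10 (-1.50) and Uqcrb (-1.22) were among them beside Uqcrh. Uqcrq, a small subunit near the ubiquinone site, had the mildest value at -0.72 (SE 0.18, adjusted p 0.00594). The 2 core proteins Uqcrc1 and Uqcrc2 were at -0.48 (SE 0.10, adjusted p 0.00235) and -0.28 (SE 0.10, adjusted p 0.0405). Uqcrfs1, the Rieske iron-sulfur protein, was at 73.8, 69.7 and 88.6 CPM in virgin and at 70.3, 94.6, 55.8 and 72.4 CPM in multipara islets with S-961, and at 80.3, 76.2, 72 and 76.5 CPM without. These ranges overlapped, and the log2 fold change was -0.02 (SE 0.13, adjusted p 0.918).

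In complex IV, 9 of the 11 widely expressed members were called lower, with a median of -1.18. Cox7a2 (ENSMUSG00000032330, chr9:79755361-79759878), a small membrane subunit, was at 42.9, 39.9 and 54.2 CPM in virgin and at 44.2, 69.5, 35.6 and 43.5 CPM in multipara islets with S-961, and at 178, 178, 175 and 206 CPM without. It was 3.93-fold lower (log2 fold change -1.97, SE 0.17, adjusted p 9.58e-06), with no overlap between treatments. Cox6c was close behind at -1.86 (SE 0.13, adjusted p 4.87e-06), the supercomplex factor Cox7a2l was at -1.57 and Cox4i1, which takes part in the control of the enzyme by ATP, was at -1.23. Cox6a1 was at -0.39 (SE 0.16, adjusted p 0.0589) and passed the threshold by DESeq2 (adjusted p 0.0467), with upper quartile factors (0.0331), with a filter at 1 CPM (0.046) and without multipara S-961 2 (0.0144), 3 (0.0455) or virgin S-961 3 (0.0372), while total counts gave 0.12 (0.462), and Cox5a is given above.

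Of the 8 members of complex IV known as tissue-restricted isoforms or as a pseudogene, 4 were tested. Cox7a1, the heart and muscle form of subunit 7a, was at 0.163 to 0.553 CPM with S-961 and at 1.16 to 1.89 CPM without, a log2 fold change of -2.33 (SE 0.39, adjusted p 0.000517). Cox4i2, the isoform known from lung and low oxygen, was at 0.129 to 1.16 CPM against 1.72 to 3.34 CPM, at -1.76 (SE 0.54, adjusted p 0.0188), a call that was lost without virgin untreated 2 (adjusted p 0.0617) or without multipara untreated 2 (adjusted p 0.0631), with total counts (0.0611) and with the length or the length and GC trend removed (0.0983 and 0.134). Cox6b2, the testis form, was at 0.0324 to 0.640 CPM against 0.268 to 0.804 CPM with overlap, and its call at -1.64 (SE 0.62, adjusted p 0.0447) was lost in 17 of 20 alternative analyses. Cox6a2, the muscle form of subunit 6a, stood out by its level, at 15.3 to 32.4 CPM with S-961 and 23.4 to 29.9 CPM without, and had a log2 fold change of -0.03 (SE 0.17, adjusted p 0.883).

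In complex V, the 4 small membrane subunits were all called lower with a median of -1.60, led by Atp5k and followed by Atp5j2 at -1.75, Atp5mpl at -1.44 and Atp5l at -1.39. Of the 5 members of the catalytic head and central stalk, 3 were called lower. Atp5e, the smallest protein of the stalk, was at 42.8 to 90.7 CPM with S-961 and at 214 to 263 CPM without, with a log2 fold change of -1.98 (SE 0.19, adjusted p 2.12e-05), and Atp5c1 and Atp5d were at -0.91 and -0.66. The α and β subunits that form the head, Atp5a1 and Atp5b, were at -0.23 (SE 0.11, adjusted p 0.0961) and -0.15 (SE 0.12, adjusted p 0.323). Atp5b was at 478, 452 and 518 CPM in virgin and at 491, 567, 355 and 481 CPM in multipara islets with S-961, and at 566, 538, 517 and 506 CPM without, so that multipara S-961 2 reached the highest untreated library. With total counts as the only scaling Atp5b was instead higher with S-961 (0.36, adjusted p 0.00927). In the peripheral stalk, which holds the head in place, Atp5h (-1.49), Atp5j (-1.18) and Atp5o (-0.85) were called lower and Atp5f1 was at -0.35 (SE 0.14, adjusted p 0.0635).

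The c ring of ATP synthase, the rotor in the membrane, is made of a protein that mice encode in 3 genes, Atp5g1 on chromosome 11, Atp5g2 on chromosome 15 and Atp5g3 on chromosome 2. The last 225 coding bases of each, which hold the mature c subunit, are shown with capitals at bases that differ from both other genes. Within this stretch such positions separate the reads of a gene from those of both others. Reads shared between these near-identical genes make their counts less certain. The sequences were read from the transcripts of GENCODE M21 on GRCm38.
Atp5g1: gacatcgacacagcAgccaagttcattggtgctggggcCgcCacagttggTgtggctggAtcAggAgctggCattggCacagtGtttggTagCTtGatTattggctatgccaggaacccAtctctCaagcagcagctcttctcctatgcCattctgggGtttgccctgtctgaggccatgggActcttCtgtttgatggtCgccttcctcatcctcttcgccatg
Atp5g2: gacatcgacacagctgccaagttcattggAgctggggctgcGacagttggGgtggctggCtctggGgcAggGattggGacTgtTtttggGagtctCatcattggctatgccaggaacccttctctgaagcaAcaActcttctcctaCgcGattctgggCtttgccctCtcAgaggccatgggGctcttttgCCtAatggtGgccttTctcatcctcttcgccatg
Atp5g3: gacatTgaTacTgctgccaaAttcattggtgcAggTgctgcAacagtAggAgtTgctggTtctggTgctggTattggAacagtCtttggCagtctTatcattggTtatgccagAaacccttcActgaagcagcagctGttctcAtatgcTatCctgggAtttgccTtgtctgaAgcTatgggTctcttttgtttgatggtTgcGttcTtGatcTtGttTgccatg

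Over these bases Atp5g1 and Atp5g2 were 84.9% identical, Atp5g1 and Atp5g3 80.0%, and Atp5g2 and Atp5g3 78.7%, with 22, 25 and 36 capitals. Atp5g2 was at 78.1 to 125 CPM with S-961 and 141 to 153 CPM without (log2 fold change -0.65, SE 0.12, adjusted p 0.00118). Atp5g3 was at 73.0 to 136 CPM and 148 to 171 CPM (-0.54, SE 0.16, adjusted p 0.0151), and its call was lost without multipara untreated 2 (adjusted p 0.0558) and with total counts (-0.02, adjusted p 0.894), under which that of Atp5g2 was lost too (-0.14, adjusted p 0.245). Atp5g1 was at 103, 88.1 and 132 CPM in virgin and at 91.1, 124, 46.1 and 99.3 CPM in multipara islets with S-961, against 109.8, 110.3, 130.4 and 133 CPM without, with overlap and a log2 fold change of -0.29 (SE 0.22, adjusted p 0.279).

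Ratios between groups of subunits within a library hardly depend on the scaling between libraries. The mean log2 CPM of the core subunits of complex I minus that of its accessory subunits was 0.62 to 0.76 in the S-961 libraries and -0.07 to 0.09 in the untreated libraries. For complex III, the core and Rieske proteins minus the small subunits gave 0.34 to 0.81 with S-961 and -0.71 to -0.31 without. For complex V, the head and central stalk minus the small membrane subunits gave 1.68 to 2.01 with S-961 and 0.70 to 1.02 without. In these 3 cases all S-961 libraries were above all untreated libraries. Against the c ring, the head and central stalk gave 0.60 to 0.94 with S-961 and 0.89 to 1.07 without, and against the peripheral stalk 1.003 to 1.21 and 0.83 to 1.004, with overlap in both. The grouping by role was set after the values were seen, and these differences are descriptions. Roles also differ in transcript length, with which the change moved over all genes, and these values are not corrected for it.

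Length of the transcript moved with the change over all genes, and most subunit transcripts are short. Among the other protein-coding genes, those of at most 600 nt had a median log2 fold change of -1.13 with S-961 (n = 227), those of 600 to 800 nt -0.82 (n = 404), those of 1000 to 1500 nt -0.40 (n = 1656), those of 2000 to 3000 nt 0.00 (n = 3753) and those over 5000 nt 0.43 (n = 2081). Members in the same ranges were lower than these medians, at -1.46 (n = 28) up to 600 nt, -1.22 (n = 18) for 600 to 800 nt, -1.08 (n = 8) for 800 to 1000 nt, -0.91 (n = 11) for 1000 to 1500 nt, -0.37 (n = 9) for 1500 to 2000 nt and -0.26 (n = 6) for 2000 to 3000 nt. Called lower were 27 of the 28 members of at most 600 nt, against 62.6% of the other genes of that length, and 2 of the 6 members of 2000 to 3000 nt, against 24%. In all, 63 of 80 members were below the median of their length range, with a median gap of -0.35.

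**Figure D4:**
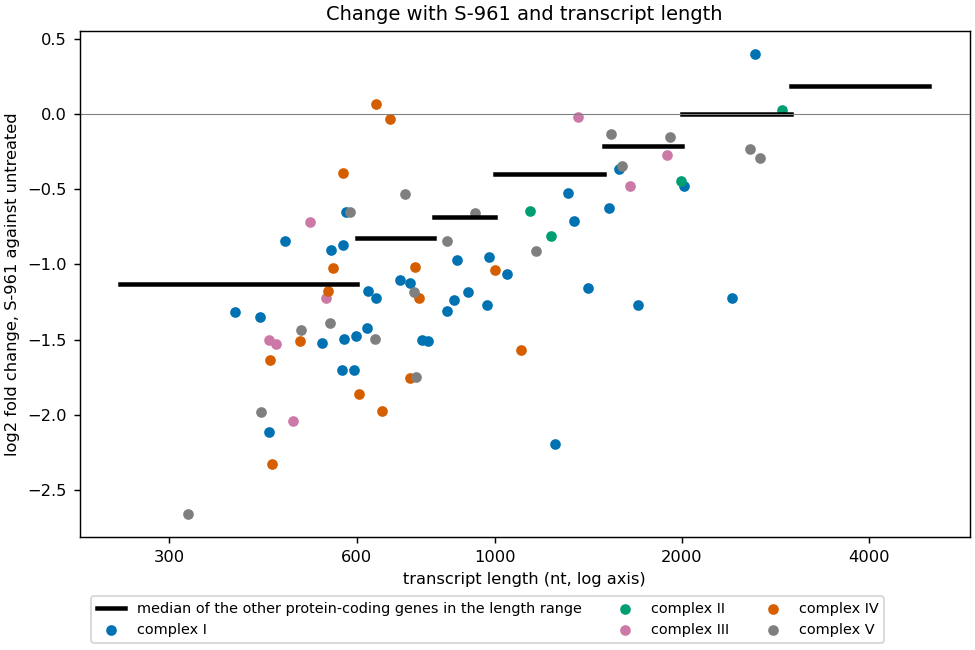
Log2 fold change with S-961 (vertical axis) against transcript length in nt (log axis) for each tested subunit gene, coloured by complex, with black bars for the median of the other protein-coding genes in each length range. Both rise with length, and 63 of 80 members lie below the bar of their range.

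The trend was also visible library by library. The median deviation of 629 other protein-coding genes under 800 nt from their own mean over libraries was 0.52 to 0.59 on the log2 scale in the untreated libraries. With S-961 the deviation stood at -0.43, -0.43 and -0.11 for virgin and at -0.42, -0.02, -0.58 and -0.39 for multipara islets. The mean deviation of the members ran alike, at 0.64 to 0.82 without S-961, at -0.47, -0.48 and -0.11 in virgin and at -0.48, 0.01, -0.82 and -0.43 in multipara islets with S-961. The libraries in which the short genes were nearest to the untreated level, virgin S-961 3 and multipara S-961 2, were those in which the members were.

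Values of mitochondrial transcripts are given beside these, and the part of length in them was not tested. The mRNA of mt-Nd4l and mt-Nd4 is a single molecule whose counts were estimated for each gene. The short mt-Nd4l was at -1.01 (SE 0.18, adjusted p 0.000855) and the long mt-Nd4 at 0.62 (SE 0.13, adjusted p 0.00192). Likewise the short mt-Atp8 was at -1.55 (SE 0.14, adjusted p 1.38e-05) and mt-Atp6 of the same molecule at 0.05 (SE 0.16, adjusted p 0.826). Of the 13 mitochondrially encoded subunits, 5 were called lower and 3 higher, with a median of -0.18, where 25.9% of all genes were called lower and 26.1% higher. After removal of the length and GC trend 3 were called lower and 4 higher, with a median of 0.15.

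When the trend of each library with transcript length and GC content was removed, 52 members were called lower and 9 higher, with a median of -0.37, where 25.1% of all genes were called lower and 23.6% higher. With coding length in place of transcript length, 59 were called lower and 3 higher, with a median of -0.60, where 28.0% of genes were called lower and 24.1% higher. By complex, the medians after removal of the length and GC trend were -0.44 for complex I, -0.23 for II, -0.26 for III, -0.39 for IV and -0.25 for V, and after removal of the coding length trend they were -0.73, -0.28, -0.36, -0.63 and -0.38. Atp5k stayed lower under both, at -1.08 and -1.63, as did Ndufa3 (-0.84 and -1.22), Uqcrh (-0.88 and -1.19), Cox7a2 (-1.07 and -1.07) and Ndufa13 (-1.90 and -1.69). Cox5a became higher under both, at 0.93 (adjusted p 2.69e-05) and 0.57 (adjusted p 0.000704), and so did Cox6a2 (0.87 and 0.77) and Cox6a1 (0.58 and 0.29). In the c ring, Atp5g2 and Atp5g3 moved from lower to higher with transcript length, to 0.37 and 0.27, but not with coding length, at -0.15 and -0.01. Atp5g1 did not change sign with transcript length but did with coding length, at 0.25 (adjusted p 0.217). The transcript lengths taken for Ndufb2 (2413 nt), Atp5g1 (2675.5 nt), Ndufs4 (1698 nt) and Ndufa13 (1251 nt) are medians over annotated transcripts and are long beside their coding lengths of 315, 408, 525 and 432 nt. The part of length, RNA quality or library preparation in the difference was not tested.

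The part of exocrine carry-over was not tested either. Acinar markers were higher with S-961 for 13 of 13 genes, with a median log2 fold change of 5.60, and none of them was at 0 in all libraries. Their sum was lowest in virgin S-961 3 among the S-961 libraries, at 2067 CPM with a mean member level of 5.73, and highest in multipara S-961 1 and 2, at 14630 and 13330 CPM with member levels of 5.35 and 5.84. The insulin genes were lower with S-961, as given above. With total counts as the only scaling, under which the median of all tested genes moved to 0.51, 52 members were called lower and 9 higher with a median of -0.65. Over all genes the split was then 8839 higher and 1817 lower, against 4704 and 4664 with TMM.

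Parity labels were compared next, within each treatment, to ask whether repeated pregnancy had changed the subunit transcripts. With S-961, 0 of 78 members differed between multipara and virgin libraries, and 0.0% of the 16784 tested genes were called by edgeR. At an unadjusted p under 0.05 there were 0 members and 1630 genes, and DESeq2 called 0 members, with 358 genes higher and 11 lower. Members were slightly lower in multipara libraries, with a median log2 fold change of -0.07, 17 of 78 above 0, and medians of -0.11, -0.09, -0.06, -0.04 and -0.02 for complexes I to V. The median standard error of 0.205 exceeded most of these values, and for 0 members were the groups without overlap, where 5.23% of genes had all multipara libraries higher and 3.64% lower.

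Cox6a2 had the lowest value in this comparison. It was at 32.4, 28.9 and 28.3 CPM in virgin and at 19.2, 24.9, 15.3 and 31.5 CPM in multipara islets with S-961. Library multipara S-961 4 was level with the virgin libraries and the other 3 were below them, and the log2 fold change was -0.38 with a 95% interval from -0.87 to 0.10 (adjusted p 0.613). Sdha was at -0.21 (interval from -0.49 to 0.08), Ndufb4 at -0.27 (from -0.64 to 0.10) and Atp5k at -0.01 (from -0.57 to 0.54). Without multipara S-961 2 the median of the members was -0.21 and without virgin S-961 3 it was 0.08, and without multipara S-961 4 it was -0.07. Without the latter, which lay close to the virgin libraries, 447 genes were called higher and 78 lower over all genes, and 0 of these were members.

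In untreated islets, 0 of 79 members and 0.0% of the 15812 tested genes were called by edgeR. At an unadjusted p under 0.05 there were 7 members and 889 genes, and DESeq2 called 0 members, with 22 genes higher and 34 lower. The members were on the whole slightly higher in multipara libraries, with a median of 0.10 and 60 of 79 above 0. For 30 of the 79 members the multipara libraries both lay above the virgin libraries and for 5 both lay below, where 17.3% and 18.8% of all genes did. The 5 were Ndufs1, Ndufv1, Sdha, Uqcrc2 and Atp5b, which have transcripts of 1528.5 to 2900 nt. They are core or catalytic subunits, but the core subunits Ndufs3 and Ndufs8 were among the 30. After removal of the trend with transcript length and GC content the median was 0.01.

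The 7 members at an unadjusted p under 0.05 were all higher in the multipara libraries. Ndufa3 was at 58.1 and 67.4 CPM in virgin and at 82.9 and 84.2 CPM in multipara islets, a log2 fold change of 0.42 (SE 0.10, adjusted p 0.719). Uqcrq was at 106 and 109 CPM against 127 and 142 CPM, at 0.33, and Cox5a at 30.6 and 29.8 CPM against 37.5 and 36.3 CPM, at 0.30. Among members with lower values in multipara libraries, Uqcrc2 was at -0.20 (SE 0.08), Ndufs1 at -0.19 (SE 0.10) and Sdha at -0.16 (SE 0.08). None of these passed the adjusted threshold.

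**Figure D5:**
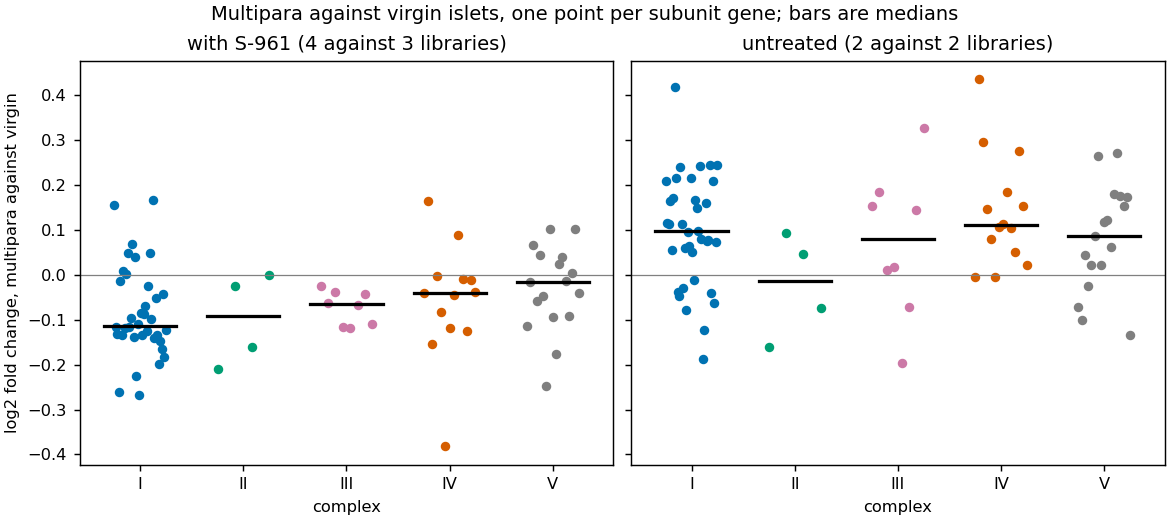
Log2 fold change of multipara against virgin islets for each tested subunit gene, by complex, with S-961 (left) and untreated (right); black bars are medians. Points with S-961 scatter around medians of -0.11 to -0.02, and untreated points lie mostly above 0 except in complex II.

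The difference between the parity effects with and without S-961 was tested as an interaction. Here 0 of 80 members and 0.0% of the 17996 tested genes were called by edgeR, with 0 members and 1179 genes at an unadjusted p under 0.05, and DESeq2 called 0 members, with 61 genes higher and 20 lower. The median of the members was -0.16 with 16 of 80 above 0. The lowest values were -0.52 for Atp5g1 (SE 0.44) and -0.49 for Ndufb4 (SE 0.23, adjusted p 0.766).

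Several subunits come in isoforms, and the share of a second isoform in the summed CPM of a pair was compared between libraries by exact two-sided permutation tests over 7 pairs. These shares are of counts and are not corrected for length. Cox6a2 made up 27.6, 25.7 and 20.4% of Cox6a1 and Cox6a2 together in virgin and 19.3, 17.4, 20.2 and 26.0% in multipara islets with S-961, and 19.0, 18.7, 16.1 and 19.9% in untreated islets. The S-961 and untreated ranges overlapped, and the difference of 4.24 points had an exact permutation p of 0.0667 (adjusted p 0.271 over the 7 pairs), where the smallest p possible is 0.00667. Between parity labels with S-961 the difference was -3.85 points (exact permutation p 0.229, adjusted p over the 7 pairs 0.4), where the smallest p possible is 0.0286.

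The share of Atp5g2 in Atp5g1 and Atp5g2 was 43.2 to 62.9% with S-961 and 52.0 to 57.4% without, a difference of -5.56 points (exact permutation p 0.16). Multipara S-961 3, at 62.9%, stood above all other libraries, and without it the difference was -7.26 points (unadjusted exact permutation p 0.01). This library was singled out after its value was seen, so that p is a description and no evidence of a difference. Cox4i2 gave 0.159 to 1.38% of the Cox4 pair, Cox7a1 0.367 to 1% of the Cox7a pair and Cox6b2 0.0437 to 0.835% of the Cox6b pair in all libraries. No pair passed the adjusted threshold in either comparison over all libraries.

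Genes that serve the same complexes but lie outside the symbol rule were counted from fixed lists in the comparison of S-961 with untreated islets, where 25.9% of all genes were called lower and 26.1% higher. Of 11 tested further subunits, carriers and partners, which include the member Atp5mpl, 9 were lower and 0 were higher with a median of -1.04, among them Atpif1, the inhibitor of ATP synthase, at -1.65 (SE 0.15, adjusted p 1.51e-05), and Higd1a at -1.92. Cyc1, the heme protein of complex III, was at -0.14 and Cycs, cytochrome c, at 0.33, and neither was called. Of 18 tested assembly factors of complex I, 12 were lower and 2 higher, of 4 for complex II 2 were lower and 0 higher, of 6 for complex III 2 were lower and 1 higher, of 22 for complex IV 12 were lower and 5 higher, and of 5 for complex V 2 were lower and 1 higher. Uqcc2 (-1.96), Pet100 (-2.08) and Cox17, the copper carrier of complex IV (-1.66), had large values. Of 18 citric acid cycle genes, 5 were lower and 5 higher with a median of -0.06, a share near that of all genes in each direction. Of 17 genes for import and the outer membrane, 6 were lower and 1 higher, and of 10 metabolic genes that respond to low oxygen, 5 were lower and 0 higher. After removal of the length and GC trend the further subunits, carriers and partners had 5 lower and 2 higher with a median of -0.29. Assembly factors then had 9 lower and 1 higher for complex I, 3 and 0 for complex II, 3 and 1 for complex III, 7 and 6 for complex IV, and 1 and 2 for complex V. The citric acid cycle then had 4 lower and 5 higher, import and the outer membrane 7 and 6, and the genes that respond to low oxygen 2 and 0.

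Of 18 tested regulators of respiratory genes, 10 were higher and 3 lower with a median of 0.41, where 26.1% of all genes were higher and 25.9% lower. After removal of the length and GC trend 6 were higher and 3 lower with a median of 0.16, where 23.6% and 25.1% of all genes were. Pprc1, a coactivator of the PGC-1 family, was at 50.9, 53.0 and 41.9 CPM in virgin and at 54.2, 41.2, 23.3 and 53.6 CPM in multipara islets with S-961, against 12.1, 14.2, 16.4 and 11.9 CPM without, a log2 fold change of 1.74 (SE 0.23, adjusted p 0.000108). Gabpa, the ETS factor of respiratory promoters, was at 29.3 to 34.4 CPM with S-961 and at 17.5 to 21.7 CPM without, at 0.69 (SE 0.09, adjusted p 8.98e-05). Nrf1 was at 14.2 to 18.5 CPM with S-961 and at 25.5 to 29.7 CPM without, at -0.76 (SE 0.09, adjusted p 5.58e-05). For each of these 3 genes the treated and untreated libraries did not overlap.

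Further regulators called higher were Esrrg at 1.28, Ppargc1b at 1.23 and Ppargc1a, which codes for PGC-1α, at 1.23 (SE 0.46, adjusted p 0.0448). Esrrg did not overlap between treated and untreated libraries, but Ppargc1b and Ppargc1a did. Both were near the floor, with Ppargc1b at no more than 1.961 CPM in any library. Ppargc1a was at 0.712 to 2.497 CPM with S-961 and at 0.179 to 0.968 CPM without. Its lowest value, 0.179 CPM, was in multipara untreated 1. Tfam, which packs and transcribes mitochondrial DNA, was called lower at -0.46 (SE 0.15, adjusted p 0.0238), and Twnk, the mitochondrial helicase, at -0.94 (SE 0.08, adjusted p 1.12e-05). After removal of the length and GC trend Pprc1 was at 1.54, Gabpa at 0.32 and Nrf1 at -0.58, each still called, whereas Tfam was at -0.03 and Ppargc1a at 0.67 and were not called.

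Levels per length of transcript, within each treatment, give only a rough comparison between genes. The trend with transcript length differed between S-961 and untreated libraries, and the order of genes carries it. Some of the lengths taken are also long beside the coding length, as given above. Atp5l had the highest mean level among the members named here in both, at 271 ± 62.3 CPM per kb (SD, n = 7) with S-961 and at 712 ± 94.8 CPM per kb (SD, n = 4) without. With S-961 it was followed by Atp5b at 249.2 ± 34.1, Cox8a at 214 ± 33.6 and Atp5a1 at 185 ± 20.7 CPM per kb, and the spread of Atp5l and Atp5b overlapped. Without treatment Atp5l was followed by Atp5e at 562 ± 48.1, Uqcrh at 511 ± 40.9, Cox7a2l at 453 ± 26.4 and Cox8a at 436 ± 15.4 CPM per kb, of which neighbours lay within their spread. Atp5e and Uqcrh were at 143 ± 40.5 and 123 ± 26.3 CPM per kb with S-961, and Atp5b was at 278 ± 13.6 CPM per kb without. The restricted isoforms Cox4i2, Cox7a1 and Cox6b2 were the lowest tested members in both, at 0.935, 0.652 and 0.431 CPM per kb with S-961 and at 3.18, 3.26 and 1.01 CPM per kb without, followed by Atp5s at 5.25 and 5.79 CPM per kb.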

How the data were processed

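Islet RNA of 11 libraries was sequenced from stranded polyA libraries. The authors deposited 1 table per library with 55536 genes of GENCODE M21 on GRCm38, holding expected counts, that is estimated counts from RSEM on STAR alignments per the labels' processing notes, without versions. The test the study used for these libraries is not given in the sources used here. Groups and replicate numbers followed the labels, and nothing ties libraries to animals or to a batch.

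Expected counts were rounded to whole numbers and fitted over all genes in R 4.3.3 with edgeR 4.0.16 (TMM factors, filterByExpr with a minimum count of 10 and a minimum total of 15, quasi-likelihood test, Benjamini-Hochberg adjusted p under 0.05, 95% intervals). Parity was tested within each treatment on the libraries of that treatment, and the S-961 contrasts and the interaction on all 11 libraries. Levels are CPM on joint TMM factors, and log2 CPM used a prior count of 2. CPM per kb used the median length of a gene's basic protein-coding transcripts. Isoform shares were tested by exact permutation of libraries in Python 3.11.15 with scipy 1.17.1. With total counts of 22028507 to 32234146, low counts among the tested members were mainly those of the restricted isoforms. Counting error was not compared with replicate spread.

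The members and lists were chosen with earlier results of these data known, so that their counts describe these libraries. Grouping by role was added after values were seen. Named genes were the Sdh genes, fixed core subunits, isoform pairs, members below the filter, the 5 largest differences in each direction with a mean log2 CPM of at least 2, up to 30 members by smallest p, and regulators or list genes past the threshold. The values of 1 member that this rule takes are not reported here, though it stays in the counts and medians. Promoters came from RefSeq on GRCm38.p6, and 66 symbols matched. On simulated counts with 4-fold changes in 200 genes and no trend with transcript length, the fit of the S-961 libraries recovered 194. It made 14 false calls among 16467 genes. The mean contrast recovered 196 with 3 false calls among 17546 genes. These simulated counts lack the length trend of the data and hold no smaller changes, so they do not measure how the fit handles either.

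Alternatives were DESeq2 1.42.0, RLE and upper quartile factors, total counts with and without Ins1 and Ins2, no filter, a filter at 1 CPM, another choice of libraries, each library left out and the replicate number as a block. Removal of each library's trend with transcript length, with length and GC content, or with coding length (splines with 5 degrees of freedom) was chosen after seeing the data.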

Additional observations from a re-analysis of the deposited data

Results flagged for a closer look

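Among the 85 members, the 4 libraries labelled multipara with S-961 held an outlying library for 1 gene. Uqcrc1, a core protein of complex III, was at 75.9, 76.7 and 74.1 CPM in replicates 1, 2 and 4 and at 58.4 CPM in replicate 3. The gap of replicate 3 to its nearest neighbour took 0.873 of the range on the log2 scale, above the 95% critical value of Dixon's test for 4 values. Chance alone gives such a gap in about 1 in 20 groups of 4, and 1 of 85 was seen. Replicate 3 was also the lowest of these libraries in the mean log2 CPM of every complex.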

How the results depend on the processing

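In each parity comparison and in the interaction, 0 members were called under every alternative. The S-961 contrasts kept at least 39 members called in either direction. That lowest count was in virgin islets after removal of the length and GC trend (60 as reported). In that fit 2958 of 17996 genes were called higher and 3139 lower. Leaving out single libraries gave 45 to 65 members in virgin islets, 50 to 68 in multipara islets and 64 to 70 for their mean. Of 17700 to 19098 tested genes, these fits called 1548 to 3816 higher and 1505 to 3650 lower in virgin islets. They called 1585 to 3659 higher and 2033 to 3792 lower in multipara islets, and 3806 to 4980 and 3694 to 4990 for the mean. The median of the members moved to -0.57 with total counts, -0.36 without the length trend, -0.33 without the length and GC trend and -0.57 without the coding length trend in virgin islets, to -0.65, -0.42, -0.39 and -0.59 in multipara islets, and to -0.65, -0.40, -0.37 and -0.60 for their mean. With total counts the levels of complexes I to V differed by -0.64, 0.0435, -0.47, -0.72 and -0.48.

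In the mean of both labels, some single genes changed sign. With total counts Atp5g1 was at 0.21, Atp5b at 0.36, Uqcrc1 at 0.0381, Cox6a2 at 0.49, Uqcrfs1 at 0.50, Cox6a1 at 0.12 and Sdhc at 0.0697. With total counts less Ins1 and Ins2, Cox6a2 was at 0.0701 and Uqcrfs1 at 0.0842, and with no filter they were at 0.0033 and 0.0209. Without the length trend Atp5g3 was at 0.20, Sdha at -0.0895, Cox6a2 at 0.77, Uqcrfs1 at 0.27, Cox6a1 at 0.53 and Atp5g2 at 0.26. Without the length and GC trend Atp5g3 was at 0.27, Sdha at -0.0454, Ndufa6 at 0.11, Atp5b at 0.0458, Cox6a2 at 0.87, Cox8a at 0.0036, Uqcrfs1 at 0.29, Cox6a1 at 0.58 and Atp5g2 at 0.37. Without the coding length trend Atp5g1 was at 0.25, Sdha at -0.19, Cox6a2 at 0.77, Cox8a at 0.0393, Uqcrfs1 at 0.13 and Cox6a1 at 0.29. Sdha was at -0.0364 with upper quartile factors, and in virgin islets at -0.0494 with those factors, -0.0779 without the length trend, -0.0373 without the length and GC trend and -0.17 without the coding length trend. The cause of these changes was not tested.

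With single libraries left out, the S-961 comparison of parity labels ran from -0.14 to 0.31 for Ndufa1, -0.11 to 0.25 for Atp5o, -0.14 to 0.23 for Cox7a2 and -0.0455 to 0.19 for Atp5g2, and the untreated one from -0.33 to 0.0232 for Atp5s. For S-961 against untreated islets it ran from -0.0453 to 0.13 for Cox5a, -0.0064 to 0.0589 for Sdha (-0.0111 to 0.0993 in virgin islets), -0.13 to 0.0643 for Cox6a2 and -0.0725 to 0.0375 for Uqcrfs1. In the interaction it ran from -0.0134 to 0.20 for Ndufa9, -0.0049 to 0.24 for Ndufa6, -0.10 to 0.30 for Ndufb11 and -0.10 to 0.29 for Atp5s. Shares moved from -0.123 to 0.280 points for Cox4i2 and -0.0224 to 0.19 points for Cox7a1 between parity labels, and between treatments from -0.0606 to 0.0992 points for Cox6b2, from -7.26 to -4.61 points for Atp5g2 and -4.89 to -3.07 points for Atp5g3 beside Atp5g1. Without multipara S-961 3, each of these last pairs had an unadjusted exact permutation p of 0.01. That library held the highest share in both pairs, so these p-values are descriptions.

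The replicate numbers were not taken as pairs. Deviations of same-numbered S-961 libraries correlated at 0.056, 0.012 and 0.093, those of same-numbered untreated libraries at 0.28, and those of all 13 same-numbered pairs between groups at -0.145 to 0.28, with 5 over 0.1. With the replicate block, 49 members were called in virgin islets, 59 in multipara islets and 63 for their mean. Of 17996 genes, 3135 were then called higher and 2836 lower in virgin islets. The counts over all genes were 2839 and 2791 in multipara islets, and 4260 and 4079 for the mean. Sdha was at -0.014 and Uqcrfs1 at 0.017, and 0 members were called by parity label or interaction. Under the block the calls of Sdhc (adjusted p 0.0726), Atp5g3 (0.0673), Cox4i2 (0.0841) and Cox6b2 (0.153) were lost for the mean, and that of Ndufs1 in virgin (0.0998) and multipara islets (0.0587). Depth limits the restricted isoforms Cox4i2, Cox6b2 and Cox7a1, which held the lowest counts of the tested members.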
